A study of Cucumis sativus with 6 samples.

Results

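Plant hormone genes were examined in female flower buds of cucumber (Cucumis sativus), sampled 7 days before anthesis, the opening of the flower. A gene was taken when its Swiss-Prot or NR protein description names auxin, gibberellin, abscisic acid, brassinosteroid or strigolactone, or one of several protein families of these pathways such as SAUR, YUCCA, snakin or protein phosphatase 2C. The search found 40 genes, and leaving out Csa6G518000, described in Swiss-Prot as a dormancy-associated protein, gave 39 of the 1589 genes in the deposited table. They were 16 auxin genes, 5 gibberellin genes, 9 abscisic acid genes, 5 other protein phosphatases 2C, 1 brassinosteroid gene and 3 strigolactone genes. RNA came from 3 wild type and 3 Cshec2-/- libraries, called mutant here. CsHEC2, the mutated gene, is named in the series title for its part in fruit wart formation and cytokinin synthesis. The labels give the genotype, tissue and stage of each library and say nothing of the kind of allele or the number of lines, and the mutated gene itself was not checked here.

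Auxin is made mainly by YUCCA enzymes, enters cells through AUX1/LAX carriers, is tied up by GH3 enzymes and acts through Aux/IAA repressors and auxin response factors; SAUR genes are among its fastest targets. Gibberellin is built by 20-oxidases and 3-oxidases and inactivated by 2-oxidases. Abscisic acid is made from carotenoids by 9-cis-epoxycarotenoid dioxygenases (NCED), broken down by CYP707A hydroxylases, and sensed by PYR/PYL receptors that inhibit clade A protein phosphatases 2C. Strigolactone is sensed by the hydrolase D14. In young flowers and fruits these hormones are known for their roles in organ growth and patterning. Cucumber genes are named below after the proteins that their descriptions cite, mostly of Arabidopsis, and such a name is a described similarity.

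The table lists only genes that the authors had found to differ between the same libraries, so being called in it says little about a gene. Of all its genes, 92.7% passed a limma test at an adjusted p of 0.05, 18.4% being higher and 74.3% lower in the mutant. Of the 39 hormone genes, 8 passed as higher and 27 as lower and 4 did not pass, which is close to that background. The authors' deposited table lists 8 of them as higher and 31 as lower, where 18.4% and 81.6% of all its genes are so listed. The median log2 change was -0.72 for the hormone genes and -0.77 for the table. Values are a normalised expression signal without a named unit, so levels are compared between libraries and not between genes. Every log2 change below is the mutant minus wild type on log2(value + 1), and every adjusted p is from limma with Benjamini-Hochberg adjustment over the table. The sum over the table ran from 23592 to 24173 in mutant and from 41126 to 59342 in wild type libraries. Median-of-ratios scaling of the libraries moved the median log2 change of all genes by 0.74, and the hormone genes then split into 8 higher, 7 lower and 24 not passing. That scaling centres a table made mostly of lower genes.

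All 7 genes classed as auxin response were lower in the mutant, against 74.3% of the table, and 3 of them also passed after median-of-ratios scaling. The class includes ABP20, whose description names auxin binding and no induction by auxin. Both auxin carriers and an auxin response factor were higher. Of the 16 auxin genes, 3 passed as higher (18.8%) and 12 as lower (75%), and 1 did not pass, close to the 18.4% and 74.3% of the table. After that scaling 3 were higher and 3 lower, against 18.4% and 14.2% of the table.

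The single synthesis gene was Csa7G390100, described as YUCCA10, a flavin monooxygenase that makes indole-3-acetic acid. It measured 0.648, 0.779 and 1.07 in wild type libraries 1 to 3 and 0.298, 0.485 and 0.364 in the mutant libraries. Its levels were low in both genotypes and did not overlap, with a log2 change of -0.40 (SE 0.12, adjusted p = 0.0159). The change was -0.06 after scaling, and the adjusted p was 0.0537 without mutant library 1.

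Both genes for GH3 enzymes, which join indole-3-acetic acid to amino acids and so remove it from the active pool, were lower. Csa3G431430 (GH3.6) measured 2.60, 3.83 and 7.08 in wild type and 1.39, 1.77 and 2.26 in the mutant, with a log2 change of -0.90 (SE 0.31, adjusted p = 0.0276). Csa6G492310 (GH3.1) measured 1.44, 0.636 and 2.20 in wild type and 0.825, 0.364 and 0.385 in the mutant, with a log2 change of -0.63 (SE 0.25, adjusted p = 0.0475). Wild type library 2 lay inside the mutant range for GH3.1, and for GH3.6 the wild type values were uneven, highest in library 3. GH3.1 lost its call on dropping any library other than wild type library 2 (adjusted p from 0.0525 to 0.123), and also without the variance trend (adjusted p = 0.0578). The call for GH3.6 was lost in the absence of mutant library 1, of mutant library 2 or of wild type library 2, with adjusted p of 0.0865, 0.0697 and 0.0587. After scaling the log2 changes of GH3.1 and GH3.6 were -0.21 and -0.22, and neither passed (adjusted p of 0.541 and 0.562).

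The auxin influx carriers moved the other way. Csa6G011040, described as LAX2, measured 4.88, 5.17 and 5.81 in wild type and 10.5, 9.72 and 9.75 in the mutant. Csa2G264590, described as LAX5, measured 8.82, 9.25 and 9.30 in wild type and 18.0, 18.1 and 15.1 in the mutant. Each was even within a genotype, with no overlap. LAX2 rose 1.89-fold (log2 change 0.81, SE 0.15, adjusted p = 0.00431) and LAX5 rose 1.87-fold (log2 change 0.83, SE 0.15, adjusted p = 0.00379).

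Among the signalling genes, a response factor was higher and the Aux/IAA genes that passed were lower. Csa6G518210, described as ARF3, the transcription factor known in Arabidopsis as ETTIN for patterning the gynoecium, measured 23.4, 19.1 and 21.2 in wild type and 36.6, 36.6 and 34.8 in the mutant. Its mutant libraries were nearly equal and all above wild type, a 1.70-fold rise (log2 change 0.74, SE 0.14, adjusted p = 0.00462). Many Aux/IAA proteins repress response factors and are themselves induced by auxin. Whether those described below act on ARF3 was not tested. Csa2G011420, described as AUX22D of mung bean, measured 29.5, 24.9 and 16.3 in wild type and 11.0, 11.7 and 13.9 in the mutant (log2 change -0.86, SE 0.24, adjusted p = 0.014). Csa2G059200, described as IAA33, fell from a wild type mean of 8.25 ± 0.969 to 4.38 ± 0.906 (mean ± SD, n = 3, here and below; limma adjusted p = 0.00875). After median-of-ratios scaling the log2 changes of AUX22D and IAA33 were 0.01 and 0.00. Csa2G200440, described as AUX22B, did not pass: it measured 97.7, 140 and 244 in wild type and 95.1, 98.6 and 98.6 in the mutant, so that wild type library 1 lay within the mutant range (adjusted p = 0.0976).

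**Figure D1:**
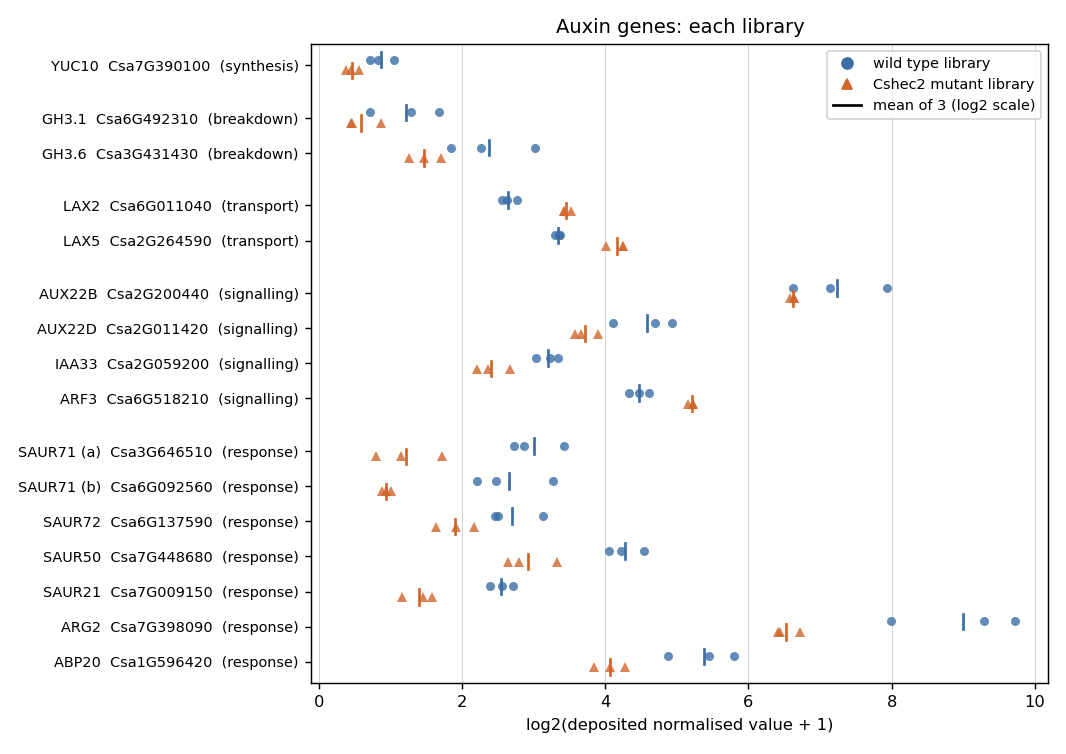
Each point is 1 library for 1 auxin gene, on the x axis as log2(deposited value + 1); circles are wild type, triangles are mutant and vertical strokes are means of 3 on that scale. The carriers LAX2 and LAX5 and ARF3 lie to the right in the mutant, the 7 response genes lie to the left, and AUX22B overlaps.

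SAUR proteins are small auxin-induced proteins, several of which promote cell expansion in Arabidopsis. All 5 genes described as SAUR were lower in the mutant, against 74.3% of the table. The ranges of the genotypes were apart for each, as they were for 94% of the table. Csa3G646510, described as SAUR71, measured 9.78, 5.61 and 6.27 in wild type and 0.739, 1.21 and 2.29 in the mutant. Csa6G092560, also described as SAUR71, measured 4.54, 3.64 and 8.67 in wild type and 0.915, 1.01 and 0.85 in the mutant. The first was highest in wild type library 1 and the second in wild type library 3. Their means were 5.11-fold and 6.06-fold higher in wild type, with log2 changes of -1.79 (SE 0.30, adjusted p = 0.00322) and -1.71 (SE 0.28, adjusted p = 0.003), and both still passed after scaling.

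Csa7G448680, described as SAUR50, measured 22.3, 17.7 and 15.6 in wild type and 9.04, 5.26 and 5.94 in the mutant (log2 change -1.35, SE 0.23, adjusted p = 0.00366). Csa7G009150, described as SAUR21, measured 4.87, 4.25 and 5.54 in wild type and 1.24, 1.75 and 2.01 in the mutant (log2 change -1.15, SE 0.18, adjusted p = 0.00261). Csa6G137590, described as SAUR72, changed least of the 5, from 5.65 ± 1.86 to 2.79 ± 0.69 (limma adjusted p = 0.0205), and did not pass without mutant library 2 or 3. After scaling, SAUR50, SAUR21 and SAUR72 had log2 changes of -0.50, -0.47 and -0.05 (SE of the last 0.22), and none of the 3 passed. SAUR genes form large families of similar copies, and whether reads were divided between copies is not known, so the separate values of the 5 genes are uncertain.

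Csa7G398090 had the largest log2 change among the auxin genes. It is described as ARG2, a protein of the late embryogenesis abundant type that indole-3-acetic acid induces in mung bean. It measured 253, 624 and 844 in wild type and 84.3, 86.3 and 105 in the mutant, so the mutant libraries were even and the wild type libraries spread over 3.33-fold. The log2 change was -2.47 (SE 0.42, adjusted p = 0.0036), and -1.54 after scaling (adjusted p = 0.0154). Csa1G596420, described as the auxin-binding protein ABP20 of peach, measured 54.7, 42.9 and 28.5 in wild type and 13.3, 15.8 and 18.4 in the mutant. Here wild type library 3 was the lowest of its genotype, opposite to ARG2, and the log2 change was -1.32 (SE 0.26, adjusted p = 0.00507). After scaling it was -0.43 and did not pass (adjusted p = 0.355).

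Of the 5 gibberellin genes, 2 passed as higher and 2 as lower, and 1 did not pass, against 18.4% higher and 74.3% lower in the table. After scaling 2 were higher and 1 lower, against 18.4% and 14.2% of the table. Csa6G476070, described as gibberellin 20 oxidase 2, which makes the direct precursors of the active hormone, measured 1.88, 1.84 and 2.70 in wild type and 4.14, 4.39 and 3.62 in the mutant. It rose 1.89-fold with no overlap between genotypes (log2 change 0.69, SE 0.17, adjusted p = 0.0096). Csa6G004480 is described in Swiss-Prot as a gibberellin 20-oxidase-like protein but in NR as a dioxygenase of the AOP1 type, so its place in the pathway is uncertain. It measured 1.49, 1.28 and 1.12 in wild type and 3.02, 2.33 and 2.00 in the mutant, also 1.89-fold higher (log2 change 0.58, SE 0.16, adjusted p = 0.0131).

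A gene described for the last step of synthesis was lower, and genes of that step that did not differ would not be listed. Csa7G434970, described as gibberellin 3-beta-dioxygenase 1 of pea, the enzyme at Mendel's stem length locus, measured 0.722, 0.939 and 1.47 in wild type. In the mutant it measured 0.10 and 0.158 in libraries 1 and 3 and is listed at 0 in library 2. All mutant values lay below all wild type values, with a log2 change of -0.90 (SE 0.15, adjusted p = 0.00312) that passed after scaling as well (log2 change -0.64, adjusted p = 0.00451). The pseudocount of 1 compresses this low gene: the authors' deposited table gives a log2 fold change of -1.54, and the ratio of the deposited means corresponds to a log2 value of -3.60.

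Csa4G075200, described as gibberellin 2-beta-dioxygenase 1, the inactivating enzyme, measured 2.59, 7.29 and 11.5 in wild type and 3.04, 3.78 and 3.36 in the mutant. Wild type library 1 lay below every mutant library while the other wild type libraries lay above them, and the gene did not pass (log2 change -0.71, SE 0.43, adjusted p = 0.144). The authors' deposited table lists it as lower with an FDR of 0.0478. Csa7G071570, described as snakin-1, a small cysteine-rich peptide of the gibberellin-regulated GASA family, measured 54.3, 43.0 and 21.8 in wild type and 14.2, 18.5 and 19.3 in the mutant. Its lowest wild type library stood just above the mutant range (log2 change -1.07, SE 0.33, adjusted p = 0.0209), and the call was lost if mutant library 1 or 2 or wild type library 2 was dropped (adjusted p of 0.0696, 0.0508 and 0.0669). After scaling the log2 change was -0.18 and did not pass (adjusted p = 0.774).

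For abscisic acid, the synthesis gene and a breakdown gene were higher, and another breakdown gene was lower. The genes of the receptor complex were lower or did not pass. Of the 9 genes, 2 passed as higher (22.2%) and 5 as lower (55.6%), and 2 did not pass, against 18.4% and 74.3% of the table. After scaling 2 were higher and 0 lower, against 18.4% and 14.2% of the table. Every lower gene but Csa1G470460 then had a log2 change above 0. Csa1G435760, described as NCED5, the type of enzyme that cleaves carotenoids in the committed step, measured 2.69, 1.94 and 5.83 in wild type and 6.81, 8.47 and 6.68 in the mutant. Wild type library 3 came close to the mutant values and the other wild type libraries lay far below. The gene rose 2.10-fold (log2 change 0.98, SE 0.32, adjusted p = 0.0239), and did not pass without any 1 of the mutant libraries (adjusted p from 0.0531 to 0.0745) or without wild type library 2 (adjusted p = 0.0718).

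The abscisic acid 8'-hydroxylases, which start its breakdown, differed from each other. Csa6G504430, described as CYP707A3, measured 0.172, 0.116 and 0.376 in wild type and 1.22, 1.51 and 1.31 in the mutant, a gap several times wider than the spread within either genotype. It was 6.07-fold higher, the largest ratio among the 8 higher hormone genes, with a log2 change of 0.94 on the compressed scale (SE 0.11, adjusted p = 0.00128). Its values were low, and a minimum mean value of 1 left it out. Csa4G056600, described as CYP707A1, measured 88.0, 72.5 and 105 in wild type and 61.2, 50.8 and 46.8 in the mutant (log2 change -0.72, SE 0.19, adjusted p = 0.0121). That lower value turned to 0.19 after scaling and did not pass without mutant library 3.

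In the receptor complex, Csa7G327730, described as the receptor PYL8, measured 16.1, 25.3 and 47.7 in wild type and 15.9, 18.0 and 16.6 in the mutant. Csa3G848150, described as HAB1, a clade A phosphatase that the receptors inhibit, measured 23.9, 37.4 and 57.6 in wild type and 25.5, 23.1 and 24.7 in the mutant. In both, wild type library 1 lay within the mutant range and library 3 far above it, and neither passed (adjusted p of 0.115 and 0.0927).

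The other receptor complex genes passed. Csa1G524760, described as AIP1, a further clade A phosphatase, measured 19.3, 22.1 and 26.6 in wild type and 12.0, 13.6 and 13.3 in the mutant (log2 change -0.75, SE 0.17, adjusted p = 0.00733). The second gene described as PYL8, Csa5G139540, fell from 14.6 ± 2.78 to 9.14 ± 0.466, and Csa1G470460, described as PYL11, fell from 2.15 ± 0.944 to 0.70 ± 0.187. Csa1G600830, described as DPBF3, a bZIP factor of the ABI5 type that binds abscisic acid response elements, fell from 13.6 ± 2.87 to 8.96 ± 0.847. Of these, PYL8 lost its call without mutant library 1 or 2. DPBF3 lost it without any 1 of the mutant libraries or without wild type library 2 (adjusted p from 0.0575 to 0.0959). After scaling AIP1, PYL8, PYL11 and DPBF3 had log2 changes of 0.13, 0.25, -0.35 and 0.32, none of which passed.

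Protein phosphatases 2C outside clade A are not established parts of abscisic acid signalling. Of these 5 genes 1 was higher (20%) and 4 lower (80%), close to the 18.4% and 74.3% of the table. Csa7G049260, described as protein phosphatase 2C 58, measured 3.48, 3.41 and 5.44 in wild type and 0.621, 0.537 and 0.311 in the mutant. Its wild type mean was 8.39-fold above the mutant mean, with a log2 change of -1.76 (SE 0.19, adjusted p = 0.000987), and it passed under every alternative tried. Csa3G150210, described as protein phosphatase 2C 35, measured 16.2, 13.4 and 14.3 in wild type and 26.9, 25.5 and 23.8 in the mutant. That rise of 1.74-fold was even in all libraries (log2 change 0.76, SE 0.14, adjusted p = 0.00477). The remaining 3 changed less: Csa3G736630 (PP2C 38, a phosphatase that acts on the immune kinase BIK1 in Arabidopsis), Csa6G190450 (PLL5, of the POLTERGEIST type) and Csa6G315640 (PP2C 73) had log2 changes of -0.59, -0.67 and -0.77, and 0.24, 0.11 and -0.08 after scaling, where none passed. PP2C 38 and PLL5 also lost their calls without mutant library 1 or 3.

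The single brassinosteroid gene was Csa7G060160, described as BAK1, the co-receptor of the brassinosteroid receptor BRI1 and also of immune receptors. It fell from 9.12 ± 2.07 to 5.37 ± 0.35 (log2 change -0.65, SE 0.20, limma adjusted p = 0.0184), did not pass when any 1 of the mutant libraries was left out, and had a log2 change of 0.16 after scaling. No gene of brassinosteroid synthesis or breakdown was found by the search terms (0 genes).

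Strigolactone receptor genes held the lowest log2 change of the 39, with that of ARG2 within its SE. D14 of Arabidopsis, DAD2 of petunia and RMS3 of pea are receptors that bind and cleave the hormone. All 3 cucumber genes described by these names were lower, against 74.3% of the table. After scaling 2 of the 3 passed as lower, against 14.2% of the table. Csa3G792050, described as D14, measured 22.7, 20.9 and 10.6 in wild type and 1.72, 2.76 and 2.26 in the mutant. Csa1G386590, described as DAD2, measured 47.0, 44.4 and 53.6 in wild type and 10.0, 10.7 and 12.5 in the mutant. In both, every wild type library lay several times above every mutant library. The log2 change was -2.50 for D14 (SE 0.30, adjusted p = 0.00128) and -2.03 for DAD2 (SE 0.15, adjusted p = 0.000552), and both passed under every alternative, with -1.73 and -1.15 after scaling.

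Csa2G354780, described as RMS3, measured 17.3, 30.4 and 47.4 in wild type and 15.4, 17.3 and 15.7 in the mutant. Wild type library 1 met the top of the mutant range and library 3 stood far above it. Its log2 change of -0.82 passed with all libraries (SE 0.34, adjusted p = 0.0493) and in 1 of the 6 fits that left out a library, that without wild type library 1. In the other 5 the adjusted p ran from 0.0922 to 0.116, and it was 0.0512 without the variance trend and 0.0502 with a minimum mean value of 1. After scaling its log2 change was 0.07. Whether reads were divided among similar hydrolase genes is not known.

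**Figure D2:**
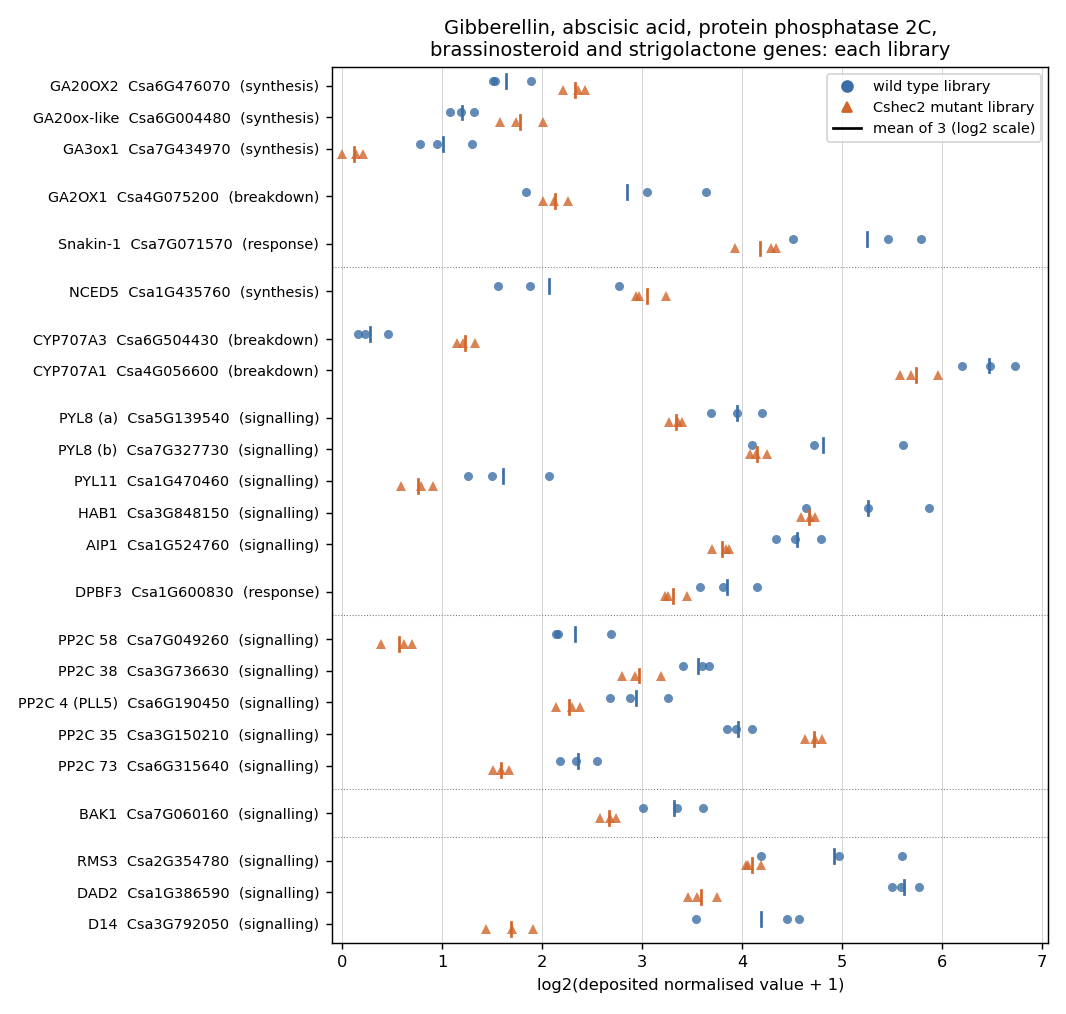
Each point is 1 library for 1 gene of the gibberellin, abscisic acid, protein phosphatase 2C, brassinosteroid and strigolactone groups, separated by dotted lines, on the x axis as log2(deposited value + 1); circles are wild type, triangles are mutant and strokes are means of 3. CYP707A3, DAD2, D14 and PP2C 58 show wide gaps, while a wild type circle falls among or beyond the triangles for GA2OX1, the PYL8 gene Csa7G327730, HAB1 and RMS3.

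Set out by role over all hormones, 3 of 5 synthesis genes were higher and 2 lower, and both auxin carriers were higher. Of 5 breakdown genes, 1 passed as higher and 3 as lower, and 1 did not pass. Of 18 perception and signalling genes 2 were higher, 13 lower and 3 not passing, and of 9 response genes 0 were higher and 9 lower. The share passing as lower was 40% for synthesis, 60% for breakdown, 72.2% for signalling and 100% for response, against 74.3% of the table. Signalling and breakdown thus did not exceed the table in lower genes. Median log2 changes were 0.58 for synthesis, 0.82 for transport, -0.71 for breakdown, -0.71 for signalling and -1.32 for response. After scaling these medians were 1.16, 1.65, 0.05, 0.12 and -0.47, and of the response genes DPBF3 alone changed sign. Both synthesis medians are the values of Csa6G004480, whose place in gibberellin synthesis is uncertain. Of the other synthesis genes, gibberellin 20 oxidase 2 and NCED5 were higher, and YUCCA10 and the gibberellin 3-oxidase were lower. The roles were assigned from the descriptions and no test of a role against the table was made. The response class includes ABP20, described as auxin-binding, and snakin-1, of the GASA family. Changes of at least 1 on the log2 scale that passed were found in 10 hormone genes, all of them lower, against 32% of the table lower and 3.08% higher by that much. Of the 10, 7 were classed as auxin or gibberellin response, ABP20 and snakin-1 among them, and the others were PP2C 58, DAD2 and D14.

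**Figure D3:**
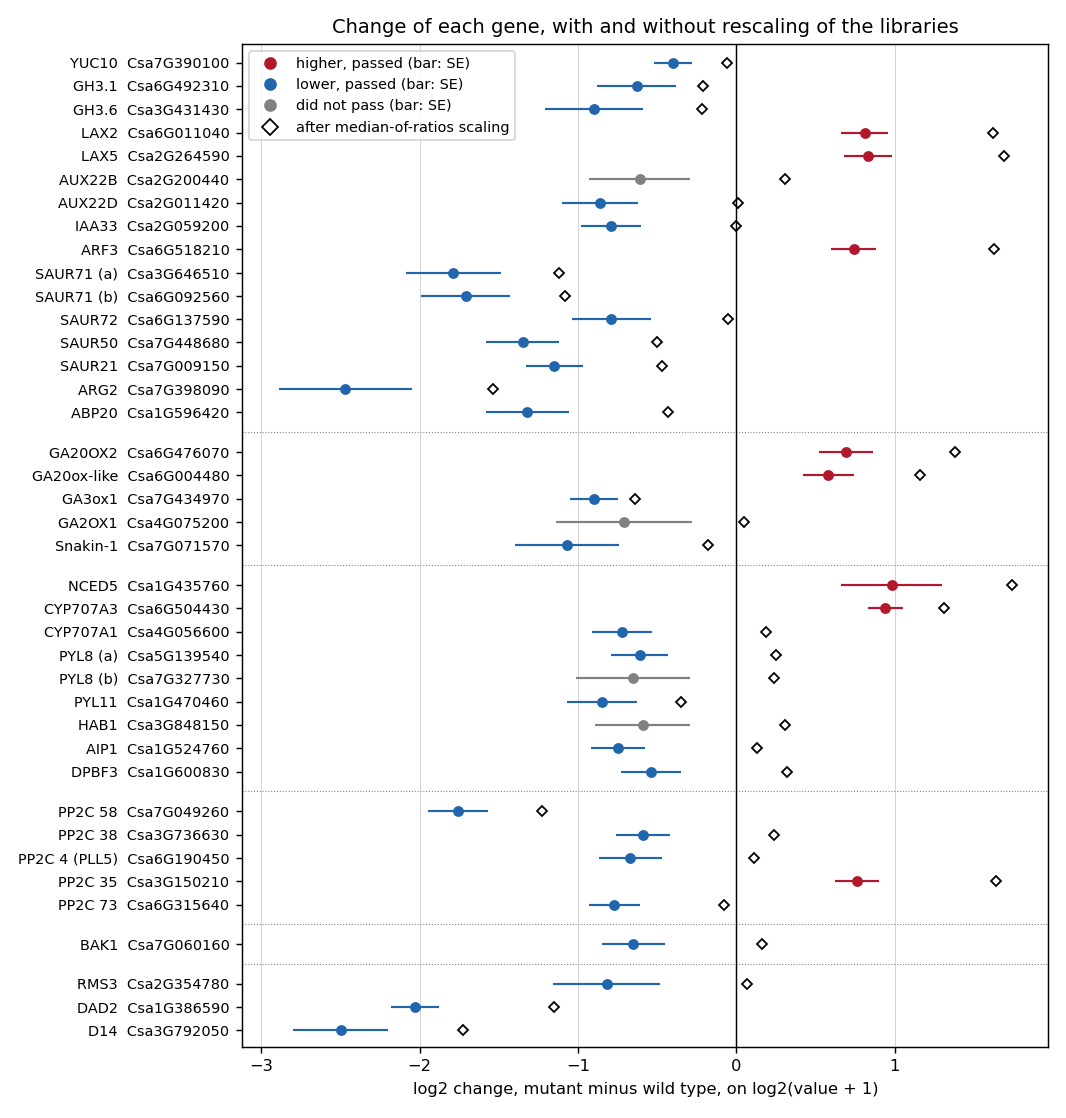
Filled points are the log2 change of each hormone gene, mutant minus wild type on log2(value + 1), with bars for the SE, coloured by whether the gene passed limma; open diamonds are the change after median-of-ratios scaling. The 8 higher genes stay right of 0 on both scales, and 14 of the 31 genes left of 0 have a diamond at or right of 0.

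Wild type libraries were less alike than mutant libraries. Over the 39 genes, the SD of log2(value + 1) had a median of 0.29 for wild type libraries and 0.14 for mutant libraries, near the 0.28 and 0.13 of the table, and 31 of the 39 genes had the larger SD in wild type. Library 3 was the highest wild type library for 28 of them (71.8%, against 51.6% of the table), and for all 9 abscisic acid genes, including NCED5 and CYP707A3, which were higher in the mutant. It was at least 2-fold above library 1 for 11 hormone genes (28.2%, against 20.1% of the table), 5 of which were abscisic acid genes. In the opposite order, library 1 was at least 2-fold above library 3 for snakin-1 and D14.

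The ranges of the genotypes were apart for 33 of the 39 hormone genes, against 94% of the table. All 6 overlapping genes are listed as lower. Of the 31 genes listed as lower, wild type library 1 reached the mutant range for 5 (16.1%, against 4.63% of such genes in the table), library 2 for 1 and library 3 for 0. The 5 were AUX22B, GA2OX1, the PYL8 gene Csa7G327730, HAB1 and RMS3, and the gene reached by library 2 was GH3.1. Without wild type library 1 the log2 change was -0.92 for Csa2G200440 (AUX22B), -1.21 for Csa4G075200 (GA2OX1), -1.01 for Csa7G327730 (PYL8) and -0.90 for Csa3G848150 (HAB1), and all 4 then passed (adjusted p of 0.00972, 0.0032, 0.00936 and 0.00595). Without wild type library 3 instead, the log2 changes of Csa2G200440, Csa4G075200, Csa7G327730 and Csa3G848150 were -0.26, -0.31, -0.25 and -0.28, and none passed (adjusted p of 0.175, 0.406, 0.263 and 0.208). The size of these 4 changes therefore depends on which wild type library is used. Over the whole table library 3 had the highest sum, 59342, against 41126 and 44182 in libraries 1 and 2, and the cause of the spread among wild type libraries was not tested.

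**Figure D4:**
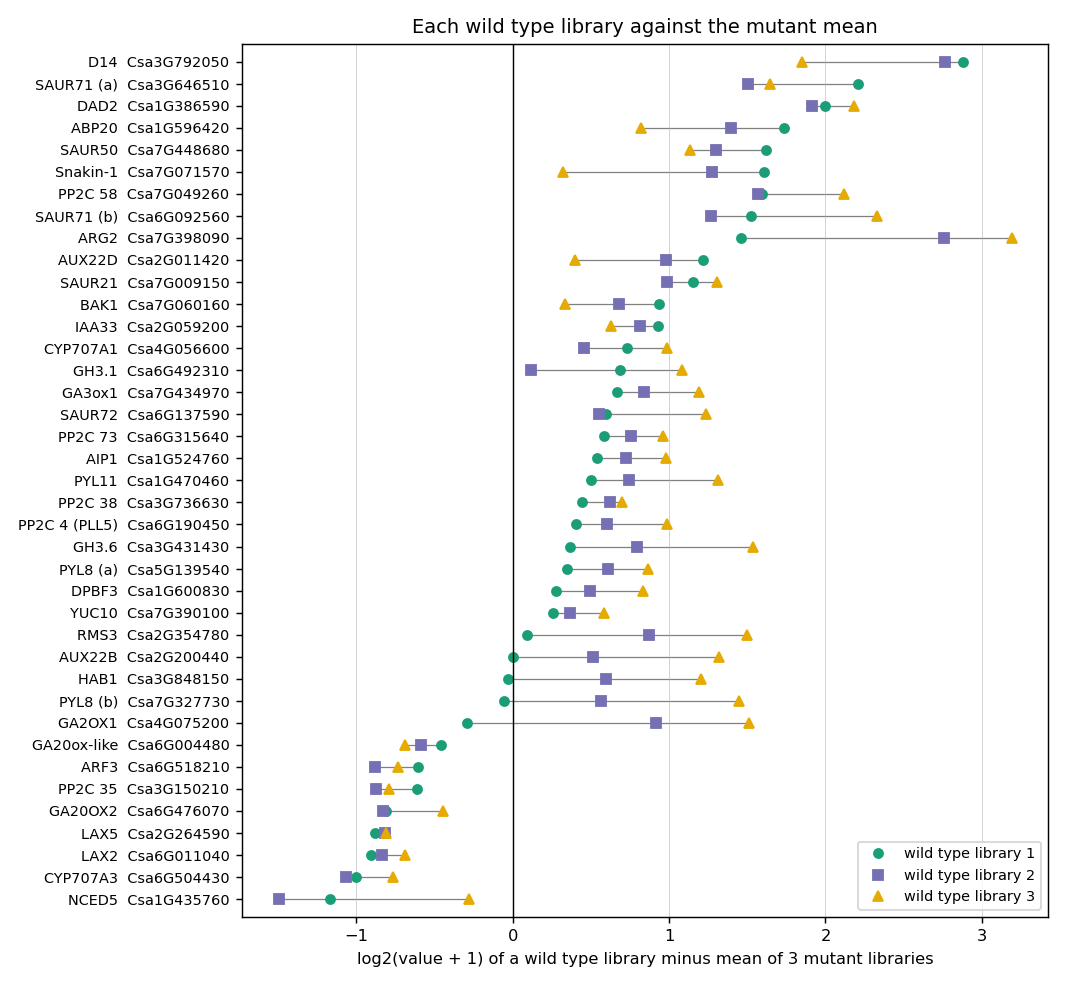
Each symbol is 1 wild type library, placed on the x axis by its log2(value + 1) minus the mean of the 3 mutant libraries, for each hormone gene in order of library 1. Library 1 lies at or left of 0 for AUX22B, HAB1, PYL8 and GA2OX1, although libraries 2 and 3 lie right of it, and all libraries lie left of 0 for the 8 genes higher in the mutant.

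Related pathway genes outside the search terms were sought with a list of 32 further names, such as PIN-FORMED, DELLA, dehydrin and SMAX1. It found 11 genes, of which 5 were higher and 6 lower, against 18.4% and 74.3% of the table. After scaling 5 were higher and 0 lower, against 18.4% and 14.2% of the table. The smallest p-values belonged to Csa3G901690 and Csa3G009500, both described as TORNADO 2, a tetraspanin that affects auxin distribution in Arabidopsis, and to the dehydrin gene Csa6G358710. Csa3G009500 measured 0.658, 0.577 and 0.623 in wild type and 1.19, 1.24 and 1.45 in the mutant (log2 change 0.50, SE 0.10, adjusted p = 0.00517), and Csa3G901690 rose by 1.64 on the log2 scale. The dehydrin, of a family that abscisic acid and drought induce, measured 142, 124 and 131 in wild type and 72.4, 83.6 and 87.1 in the mutant (log2 change -0.71, adjusted p = 0.00557), with 0.21 after scaling.

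A further pair was singled out after its values were seen. Csa6G410650, described as ent-copalyl diphosphate synthase, the enzyme of the first gibberellin-specific step, measured 3.15, 3.50 and 4.17 in wild type and 7.46, 6.07 and 5.88 in the mutant (log2 change 0.70, SE 0.17, adjusted p = 0.00999). It was higher together with the 20-oxidase and against the 3-oxidase. Csa6G046310, described as SMAX1-LIKE 3, measured 22.6, 29.5 and 17.8 in wild type and 41.7, 39.9 and 40.6 in the mutant (log2 change 0.81, SE 0.20, adjusted p = 0.00967). Its part in strigolactone signalling was not tested.

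Genes of the tissue and of other cell types could be checked only among genes that differ. Words for floral regulators found 6 genes, 3 higher and 3 lower, described as CRABS CLAW, YABBY or MADS-box proteins. Whether each acts in floral organ identity was not tested, so their sum is no measure of it. The higher ones were the carpel regulator CRABS CLAW (251 ± 16.5 in mutant, 138 ± 29.3 in wild type), YABBY 1 (274 ± 9.22, 145 ± 13.7) and YABBY 5 (10.5 ± 2.19, 6.34 ± 0.659). The lower ones were the MADS-box genes described as SVP (13.5 ± 0.879, 40.5 ± 23.8), SOC1 (2.05 ± 0.282, 6.11 ± 3.66) and CMB1 (4.87 ± 0.353, 10.7 ± 4.14). The sum of the 6, made up mostly by CRABS CLAW and YABBY 1, was 533 to 571 in mutant and 333 to 366 in wild type libraries. Phloem and vascular words found 7 genes, 3 higher, 3 lower and 1 not passing, which summed to 122 to 129 in mutant and 145 to 234 in wild type. Photosynthesis words found 3 genes, all lower, at 109 to 125 against 165 to 213, and pollen and anther words found 0. Of the table, 18.4% passed as higher and 74.3% as lower. The table's own sum was 23592 to 24173 in mutant and 41126 to 59342 in wild type libraries. After median-of-ratios scaling, 3 floral, 3 phloem and 0 photosynthesis genes passed as higher, and 0 of these genes passed as lower. In such whole-bud RNA, fewer cells of a type and less RNA per cell cannot be told apart, and the part of these genes' cell types in the hormone results was not tested.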

How the data were processed

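The members and lists were chosen with earlier results of these data known. Total RNA was taken up in Trizol and sequenced from Illumina-kit libraries, per the labels' protocols. The submitters' processing notes name HISAT2, HISAT and DESeq2 with no role; genome build, annotation and use of strand: not given in the sources used here. The authors deposited 1 table of 1589 genes selected for differing between genotypes, per the file headers. It holds a normalised signal for each library with no named unit, and the deposited FDR (an adjusted p-value) and log2 fold change of the authors' comparison. Read depth is unknown, since low values share no common step, so no interval or floor is given. The log2 ratio of the deposited means had the sign of the authors' deposited table for all 39 genes and differed from it by a median of 0.13.

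Genotypes (3 libraries each, called biological replicates in the design text) were compared on log2(value + 1) over the whole table by limma 3.58.1 (R 4.3.3) with a variance trend, with no filter on low values, a threshold of 0.05 and Benjamini-Hochberg adjustment. The fit was also run on simulated data, and the outcome is not given here and is not relied on. Hormone and role were assigned by hand from the descriptions. Per-library values are given for the higher genes and for lower genes with an absolute log2 change of at least 1, a role in synthesis, breakdown or transport, or a wild type mean of at least 20. Related genes were matched as whole words, which keeps the disease resistance genes RGA2 to RGA4 out; the 3 with the smallest p were named by rule. With 0 of the identifiers found in RefSeq's gene table, neither coordinates nor sequences are given. Alternatives were a block for the replicate number, pseudocounts of 0.1 or 0.5, a minimum mean value of 1, median-of-ratios scaling, no trend, and each library left out. Figures were drawn with matplotlib 3.10.9.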

Additional observations from a re-analysis of the deposited data

How the results depend on the processing

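Median-of-ratios scaling had the largest effect. It changed the lower counts from 1180 to 225 for the table, from 27 to 7 for all hormone genes, from 12 to 3 for auxin, from 2 to 1 for gibberellin, from 5 to 0 for abscisic acid and from 4 to 1 for the other protein phosphatases 2C, while the higher counts (293, 8, 3, 2, 2 and 1) did not move. The scaling raises every mutant value against wild type by construction. It turned 14 lower hormone genes to log2 changes of 0.31 (Csa2G200440), 0.01 (Csa2G011420), 0.00 (Csa2G059200), 0.05 (Csa4G075200), 0.19 (Csa4G056600), 0.25 (Csa5G139540), 0.24 (Csa7G327730), 0.31 (Csa3G848150), 0.13 (Csa1G524760), 0.32 (Csa1G600830), 0.24 (Csa3G736630), 0.11 (Csa6G190450), 0.16 (Csa7G060160) and 0.07 (Csa2G354780). Of the related genes it turned Csa5G630930 to 0.13, Csa6G358710 to 0.21 and Csa5G167740 to 0.01. None of these 17 passed on that scale.

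A mean value of at least 1 left out 4 hormone genes, so gibberellin had 1 lower and abscisic acid 1 higher gene. Leaving out 1 library at a time gave 7 to 8 higher and 17 to 30 lower hormone genes, the fewest without mutant library 1, and 263 to 289 higher and 823 to 1236 lower genes in the table. By hormone it gave 3 higher and 9 to 12 lower for auxin, 2 higher and 1 to 3 lower for gibberellin, 1 to 2 higher and 3 to 7 lower for abscisic acid, and 1 higher and 2 to 4 lower for the other phosphatases. Of the 35 passing hormone genes, 13 lost their call without some library. With the alternatives that could be run, 14 genes passed every time, 7 higher and 7 lower. No table share is given for these counts, so they do not compare hormone genes with the table. The scaling raises every mutant value, so a higher gene could hardly fail it, and it cut the lower genes from 27 to 7.

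Samples sharing a replicate number did not deviate together (correlations of -0.092, -0.044 and -0.182, and from -0.068 to 0.164 for samples with different numbers). With 3 libraries per genotype, such correlations cannot exclude that the numbers pair the samples. With the number as a block, the hormone counts were 8 higher and 27 lower, and over all listed genes 288 were higher and 1104 lower.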
